A study of Mus musculus with 12 samples.

Results

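Hsd3b1 and Hsd3b4 encode mouse members of the 3-beta-hydroxysteroid dehydrogenase family and were measured here in the renal medulla of water-restricted and control mice. All clones whose only annotated gene is Hsd3b1 (Entrez 15492) or Hsd3b4 (Entrez 15495) were taken. There was 1 clone of each, printed as 2 adjacent spots, so the genes are represented by 4 of 31200 spots, 2 of 15600 clones and 2 of the 6786 genes that could be named. Amplified RNA of 3 water-restricted mice was compared on 2-colour arrays with that of 3 control mice, every restricted mouse against every control mouse. These 9 pairs of mice gave 12 arrays, because 3 pairs were run in both dye orientations (control mouse 3 with restricted mouse 1, control mouse 1 with restricted mouse 2, control mouse 2 with restricted mouse 3). The restricted mouse carried Alexa Fluor 546 on 6 arrays and Alexa Fluor 647 on the other 6. The sources used here do not give the strain, sex or age of the mice, nor the length of the restriction.

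Enzymes of this family oxidise the 3-beta-hydroxyl group of steroid precursors and move a double bond within the ring system, a step needed for progesterone, corticosteroids and androgens. Mouse Hsd3b1 is known as the form of the adrenal gland and gonads. Mouse Hsd3b4 is known as a kidney form that works mainly in the opposite sense, reducing 3-ketosteroids. In the kidney, enzymes of this family are known from the proximal tubule, whose straight part reaches into the outer medulla.

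Hsd3b1 and Hsd3b4 lie in 1 gene cluster on mouse chromosome 3 in the RefSeq table of assembly GRCm38.p6. Between them the table lists 11 genes, 5 of them protein coding and 6 pseudogenes, and none of the 11 was named on the arrays. The 5 coding genes are Gm10681, Hsd3b5, Hsd3b2, Hsd3b3 and Hsd3b6. Gm10681 has Hsd3b4 as a synonym, and both gene models span 11509 bases. The promoter windows of the 2 measured genes, 250 bases before to 50 after the annotated start, are shown because both genes differed to the same side on every array. The Hsd3b1 window is chr3:98859745-98860044 and the first of 2 overlapping Hsd3b4 windows is chr3:98510518-98510817, both from RefSeq on the minus strand of GRCm38.p6. Capitals mark matches to AGAACA, a half-site of steroid receptors, and to GTTAAT, a half-site of HNF1, on either strand.
Hsd3b1: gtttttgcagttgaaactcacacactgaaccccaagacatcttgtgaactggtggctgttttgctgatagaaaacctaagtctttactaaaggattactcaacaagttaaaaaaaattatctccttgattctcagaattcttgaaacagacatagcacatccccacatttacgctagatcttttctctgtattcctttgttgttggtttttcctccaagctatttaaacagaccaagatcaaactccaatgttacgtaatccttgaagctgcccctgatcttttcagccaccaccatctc
Hsd3b4: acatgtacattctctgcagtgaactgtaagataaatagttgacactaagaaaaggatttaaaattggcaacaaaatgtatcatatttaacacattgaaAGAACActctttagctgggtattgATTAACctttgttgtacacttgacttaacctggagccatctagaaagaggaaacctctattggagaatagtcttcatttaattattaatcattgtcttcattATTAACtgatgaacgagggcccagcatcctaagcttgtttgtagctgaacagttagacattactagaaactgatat

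Both strands were also searched for TATAAA, the TATA box. A further search was for AGGTCA, a half-site of nuclear receptors. The last was for TGGAAA, the core bound by Nfat5. The Hsd3b1 window holds none of these 5 motifs. The printed Hsd3b4 window has AGAACA once, from position -152 relative to the start, and GTTAAT on the opposite strand from -128 and -26, with no overlap between matches. The second Hsd3b4 window, which shares 205 bases with the first, also has TATAAA on both strands, in matches that overlap. These begin at positions 26 and 28 relative to its start, so they lie after the start and not before it. Of 32851 promoter windows of the same length, 19.0% hold AGAACA, 7.1% GTTAAT, 13.6% TATAAA, 16.3% AGGTCA and 21.4% TGGAAA. The windows of Hsd3b1 and Hsd3b4 share no identical run longer than 10 bases, whereas those of Hsd3b4 and Gm10681 share a run of 271 bases. Promoter windows do not show what a clone binds. The clone sequences were not analysed here, so whether transcripts of related genes add to the signal of either clone was not examined, and the values of both are uncertain in this respect.

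The deposited value of a spot is a log2 ratio of both channels, and the sources used here do not give which channel is the numerator. Ratios were turned to the orientation with the restricted mouse in Alexa Fluor 546. With Alexa Fluor 546 as the numerator, a positive value means a higher level in restricted mice, and with Alexa Fluor 647 as the numerator a lower one. Every signed value below shares this limit. Earlier results of these data led to both genes, the group difference in the case of Hsd3b1 and the differences between mice in that of Hsd3b4. Their group differences, and the spread of Hsd3b4 between mice, are therefore given as a description without a test. Only ratios were deposited, so the abundance of either transcript is unknown and the levels below are relative to the mean of the 6 mice.

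Over the series, array medians of the deposited ratios lay between -0.04 and 0.06, and 11 arrays had an SD of 0.515 to 0.764 over their spots. The array of restricted mouse 2 and control mouse 2 stood apart, with an SD of 1.21. Without that array the difference was 1.45 (SE 0.20) for Hsd3b1 and 1.70 (SE 0.36) for Hsd3b4. After turning, both arrays of a dye-swapped pair correlated across clones at 0.136 for restricted mouse 1 and control mouse 3, -0.13 for 2 and 1, and 0.133 for 3 and 2, so the arrays of 1 pair ran against each other over all clones.

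Hsd3b1 had a positive ratio on 12 of 12 arrays, and its size followed the dye orientation. With the restricted mouse in Alexa Fluor 546, the arrays of control mouse 1 gave log2 ratios of 0.22 and 0.30, those of control mouse 3 gave 0.64 and 0.64, and those of control mouse 2 gave 0.71 and 1.42. With the restricted mouse in Alexa Fluor 647, the arrays of control mouse 1 gave 1.69 and 1.90, those of control mouse 3 gave 2.37 and 2.37, and those of control mouse 2 gave 2.39 and 2.49. The lowest ratio of the second orientation thus lay above the highest of the first, which held in either direction for 4.61% of all genes. The means were 0.66 ± 0.42 and 2.20 ± 0.33 (SD, n = 6 arrays each). As linear ratios these values span 1.17-fold to 5.63-fold.

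Within each orientation the Hsd3b1 ratios also fell into the same order of control mice, 1 below 3 below 2, with no overlap between mice. Arrays of the 3 control mice were separate within both orientations, in any order, in 1.05% of all genes. Arrays of control mice 3 and 2 were close, with 0.64 against 0.71 and 2.37 against 2.39 at their nearest.

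Hsd3b4 was likewise positive on 12 of 12 arrays, but its ratios in the 2 dye orientations overlapped, at 1.24 to 2.93 and 0.50 to 2.63. On the arrays of control mouse 1 alone they did not overlap. With the restricted mouse in Alexa Fluor 546, the arrays of control mouse 1 gave 1.24 and 1.31, those of control mouse 3 gave 1.24 and 1.82, and those of control mouse 2 gave 2.46 and 2.93. With the restricted mouse in Alexa Fluor 647, the corresponding values were 0.50 and 0.92, 1.60 and 1.98, and 2.06 and 2.63. All 4 arrays with control mouse 2 lay at 2.06 or more, above the other 8. As Hsd3b4 was chosen by its differences between mice, and the share of genes with such a gap was not counted, nothing is read from it. The arrays of control mice 1 and 3 overlapped, at 0.50 to 1.31 and 1.24 to 1.98. Arrays of the 3 control mice were wholly separate over all 12 arrays in 0.0884% of genes, and neither Hsd3b1 nor Hsd3b4 was among these. The orientation means of Hsd3b4 were 1.83 ± 0.72 and 1.62 ± 0.78 (SD, n = 6 arrays each). Grouped by restricted mouse the ratios overlapped, at 1.31 to 2.63, 0.92 to 2.93 and 0.50 to 2.46 for mice 1, 2 and 3. As linear ratios they span 1.41-fold to 7.62-fold.

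A ratio of 1 sign on all 12 arrays was found in 2.05% of genes, and a positive one in 1.46%. Since this contrast was used to choose Hsd3b1, nothing is read from that share. As deposited, before turning, the ratios of both genes were positive on the 6 arrays of the first orientation and negative on the 6 of the second.

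**Figure D1:**
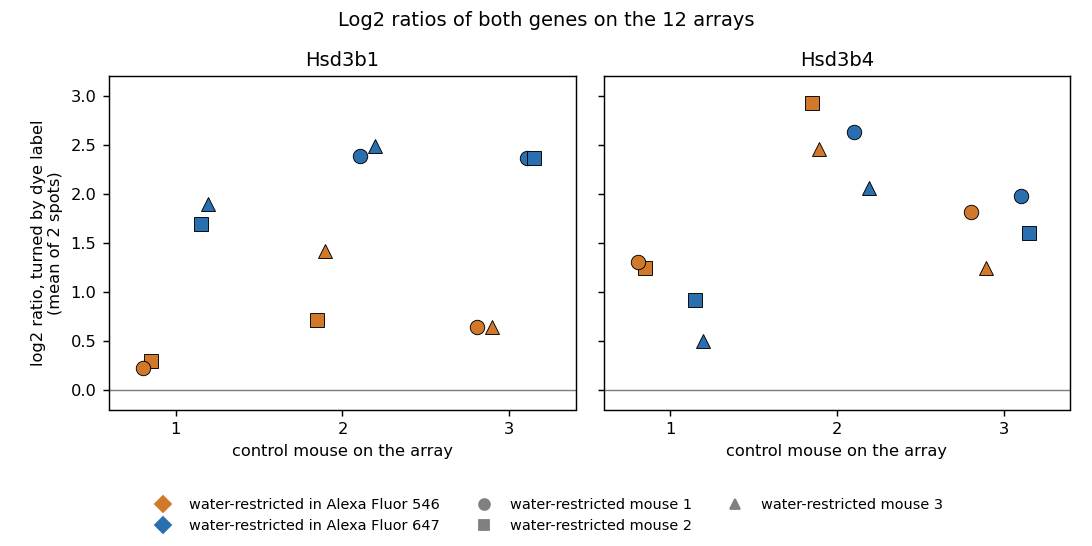
Log2 ratios of Hsd3b1 (left) and Hsd3b4 (right) on the 12 arrays, plotted by the control mouse on the array, each point being the mean of 2 spots, with colour for the dye of the restricted mouse and shape for the restricted mouse. Hsd3b1 separates by colour, 0.22 to 1.42 against 1.69 to 2.49, and Hsd3b4 is highest with control mouse 2 (2.06 to 2.93) in both colours.

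Duplicate spots lay close together for both clones. Spots of Hsd3b1 differed by a median of 0.15 on the log2 scale, with a largest difference of 0.59 on the array of restricted mouse 2 and control mouse 2. Spots of Hsd3b4 differed by a median of 0.09 and at most by 0.22. Over all clones, the median difference between duplicate spots was 0.20 to 0.40, depending on the array. After fitting mice and dye, the residual SD between arrays was 0.21 for Hsd3b1 and 0.15 for Hsd3b4, against a median of 0.359 over all genes. A smaller residual SD than that of Hsd3b4 was found in 4.16% of genes, and a smaller one than that of Hsd3b1 in 15.1%.

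The dye orientation is a contrast other than those that led to the genes, so its term was tested in the fit over all genes on 12 arrays. That Hsd3b1 differs between orientations was known beforehand, and its test is not independent evidence. The dye term is the part of a deposited ratio that does not change sign when the dyes are swapped. It was -0.77 for Hsd3b1 (SE 0.08, 12 arrays, limma adjusted p = 0.003) and 0.11 for Hsd3b4 (SE 0.07, limma adjusted p = 0.366). Of all 6786 genes, 6.62% had a dye term past the threshold of 0.05, and 1.5% a negative one. Hsd3b1 had the sixth most negative term of all.

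Set side by side on each array, the values of both genes are given as a description, since this contrast was chosen after they were seen and holds the dye term of Hsd3b1. The ratio of Hsd3b4 exceeded that of Hsd3b1 on 6 of 6 arrays of the first orientation, by 0.59 to 2.21, and on 1 of 6 arrays of the second, where the difference ran from -1.40 to 0.23. The mean difference, Hsd3b4 minus Hsd3b1, was 1.17 ± 0.55 (SD, n = 6 arrays) and -0.59 ± 0.54 (SD, n = 6). The array of the second orientation on which Hsd3b4 was larger, by 0.23, was that of restricted mouse 1 and control mouse 2. An exact permutation test of arrays between the orientations gave p = 0.00216. Nothing is read from it, because the arrays share mice and the contrast was chosen after the values were seen.

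**Figure D2:**
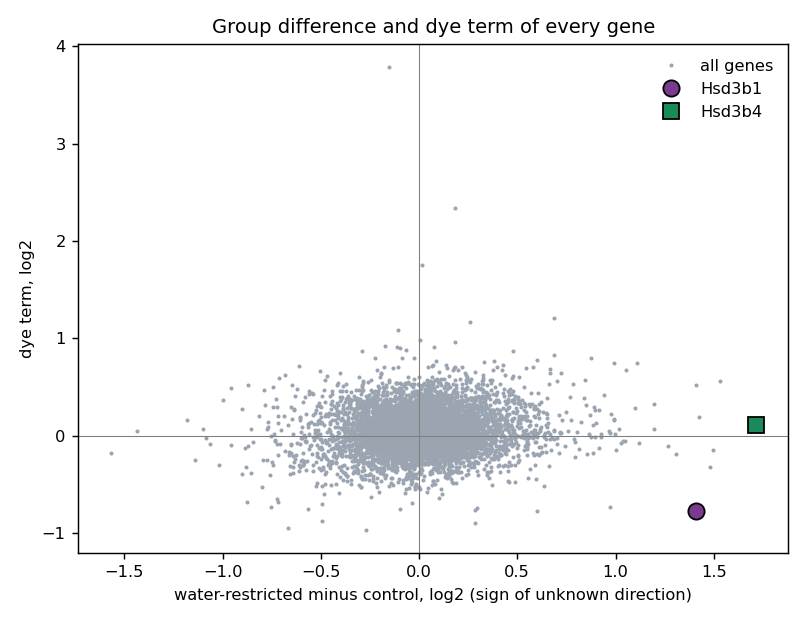
Group difference (x axis, log2) and dye term (y axis, log2) of all 6786 genes, with Hsd3b1 as a circle and Hsd3b4 as a square. Hsd3b4 lies at 1.72 with a dye term of 0.11, and Hsd3b1 at 1.41 with a dye term of -0.77.

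Levels were fitted for each mouse from all 12 arrays. For Hsd3b1 the restricted mice 1, 2 and 3 had levels of 0.67, 0.65 and 0.79, and the control mice had -0.33, -0.98 and -0.80. The groups did not overlap, and nothing is read from this because the gene was chosen from the group difference. In a fit with all arrays weighing the same, the 3 restricted mice differed by 0.17 or less, under the technical SE of 0.20 for a difference between mice of 1 group. In that fit, control mouse 1 lay 0.68 above control mouse 2 and 0.47 above control mouse 3 (SE 0.20 each), and control mice 2 and 3 differed by 0.21 (SE 0.20). The mean level was 0.71 ± 0.08 in restricted and -0.71 ± 0.34 in control mice (SD, n = 3 each), a difference of 1.41 (SE 0.19), which corresponds to a ratio of 2.66.

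For Hsd3b4 the restricted mice had levels of 1.09, 1.01 and 0.47 and the control mice -0.10, -1.75 and -0.72. The groups did not overlap here either, and the share of all genes for which this holds was not determined. With all arrays weighing the same, restricted mice 1 and 2 differed by 0.10 (SE 0.18), while both lay above restricted mouse 3, by 0.62 and 0.52. Control mouse 1 lay 1.66 above control mouse 2 and 0.64 above control mouse 3, and mouse 3 lay 1.02 above mouse 2. The gap between the groups at its nearest, restricted mouse 3 against control mouse 1, was 0.57 (SE 0.17). The mean level was 0.86 ± 0.33 in restricted and -0.86 ± 0.83 in control mice (SD, n = 3 each), a difference of 1.72 (SE 0.38), which corresponds to a ratio of 3.28.

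By size, the difference of Hsd3b4 was the largest positive one among the named genes and that of Hsd3b1 the seventh, while the median over all genes was 0.003. Just above Hsd3b1 among genes positive on all arrays were Miox at 1.43 and Polr2b at 1.41, and just below it was Car4 at 1.31. Leaving out 1 mouse at a time gave 1.27 to 1.60 for Hsd3b1 and 1.27 to 2.09 for Hsd3b4, with the lowest value of both without control mouse 2 and the highest without control mouse 1. The Hsd3b1 difference was 0.66 (SE 0.25) on the arrays with the restricted mouse in Alexa Fluor 546 alone and 2.20 (SE 0.23) on the others. Hsd3b4 had 1.83 (SE 0.43) and 1.62 (SE 0.36).

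Differences between mice of the same group were tested for Hsd3b1, since they were not used to choose it. The F over both groups was 3.95 and did not pass (limma adjusted p = 0.362, unadjusted p = 0.0354). At an unadjusted p under 0.05 there were 870 genes. For Hsd3b4, chosen on this measure, F was 23.3, which is a description from which nothing is read. Of all genes, 0.206% passed the threshold for this F. Without control mouse 1 the F of Hsd3b1 was 0.64.

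**Figure D3:**
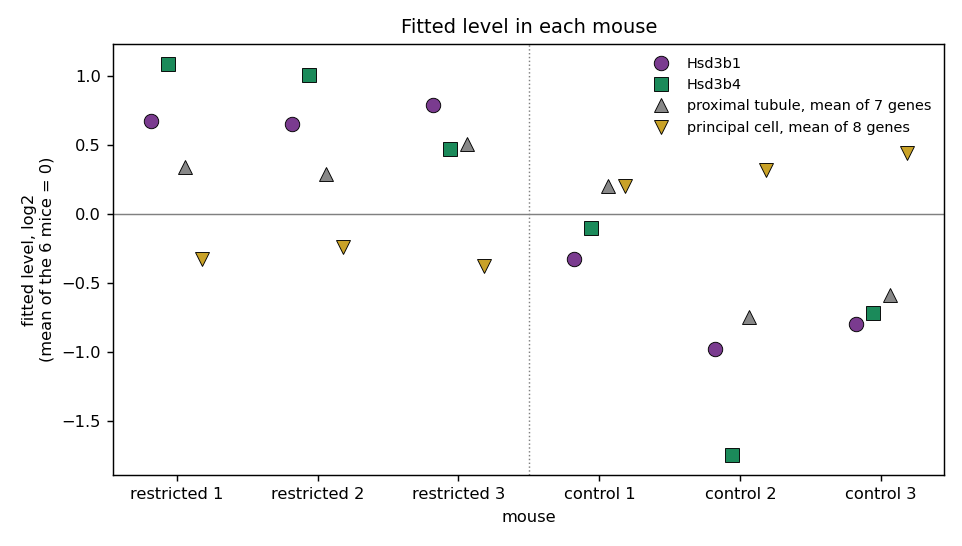
Fitted log2 level in each of the 6 mice for Hsd3b1, Hsd3b4, the mean of 7 proximal tubule genes and the mean of 8 principal cell genes, each centred on the mean of the 6 mice. Control mouse 1 is the highest control mouse for both genes (-0.33 and -0.10) and for the proximal tubule mean (0.20).

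Measured genes of the proximal tubule, where kidney steroid enzymes of this family are known to be made, shared part of this pattern. Of 31 listed genes 7 were measured, 5 of them positive, with a median difference of 0.92 and a range of -0.14 to 1.48. Their mean level was 0.34, 0.29 and 0.51 in restricted mice and 0.20, -0.75 and -0.59 in control mice 1, 2 and 3. The differences were 1.48 (SE 0.52) for Gatm, an enzyme of creatine synthesis, 1.43 (SE 0.32) for Miox, which breaks down inositol, and 1.05 (SE 0.35) for Lrp2, the endocytic receptor megalin. On the mouse levels none of the 7 passed. With random mouse effects 2 of the 7 did, Gatm and Miox (limma adjusted p = 0.0444 and 0.00836), where 0.943% of all genes passed on the positive side. That fit gives all genes the same variance ratio, whereas Gatm differed strongly between mice of the same group (F 68.3, limma adjusted p = 0.000713). For Gatm, control mouse 1, at 0.65, lay above restricted mice 1 and 2, at 0.58 and 0.49, so its call in that fit is uncertain. Of all genes, 50.7% had a positive difference. This list was chosen with earlier results of these data known, so its counts are a description only. Tmem174, a kidney membrane protein, had 0.92 (SE 0.47), Slc22a7, an organic anion transporter, 0.67 (SE 0.52), and Spp2, a secreted phosphoprotein, -0.14 (SE 0.22). In control mice 1, 2 and 3 the levels were 0.65, -1.44 and -1.43 for Gatm, 0.91, -1.23 and -0.68 for Slc22a7, 0.62, -1.16 and -0.84 for Tmem174 and 0.10, -1.40 and -0.27 for Lrp2. These 4 of the 7 had control mouse 1 highest of the control mice, as did Hsd3b1 and Hsd3b4. Among the other 3, Miox had nearly equal levels, at -0.64, -0.73 and -0.76. Spp2 ran the other way, at -0.32, 0.50 and 0.02, and Cyp7b1 had 0.10, 0.18 and -0.16. How many of all genes have control mouse 1 highest was not counted, and Hsd3b4 was chosen by its differences between mice. The likeness is therefore a description only. In bulk tissue, fewer cells of a type and less RNA per cell cannot be told apart, and the part of the proximal tubule share in the values of Hsd3b1 and Hsd3b4 was not tested.

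Principal cell genes of the collecting duct lay on the other side. Of 18 listed, 8 were measured and all 8 were negative, with a median of -0.51. Wnt4, a secreted signal, had -1.44 (SE 0.17), Fxyd4, a sodium pump regulator, -1.10 (SE 0.22), the keratin Krt18 -0.87 (SE 0.19), the transcription factor Gata3 -0.59 (SE 0.18), St6gal1, a sialyltransferase, -0.43 (SE 0.21), and the matrix protein Npnt -0.26 (SE 0.21). The first 4 of these passed in the fit with random mouse effects, where 0.516% of all genes passed on the negative side, and none did on the mouse levels. As earlier results of these data were known when the list was chosen, its counts are a description only. The mean level of the list was -0.33, -0.24 and -0.38 in restricted and 0.20, 0.32 and 0.44 in control mice. For the other cell type lists the median differences were 0.27 for thin limb (1 gene), 0.15 for distal convoluted tubule (1), -0.74 for intercalated cells (1), 0.20 for leukocytes (3), -0.23 for interstitium (8), 0.17 for podocytes (2), 0.08 for endothelium (2), -0.13 for urothelium (1) and -0.74 for erythroid cells (3). None of the genes of thick ascending limb or adipocytes was measured. Of these lists, only Col3a1, a collagen, and the haemoglobin gene Hbb-b1 passed with random mouse effects, both on the negative side. The 2 clones of Col3a1 disagreed, with mean ratios of -1.1 and -0.06, while those of Hbb-b1 had -0.97 and -1.08. The part of these cell types in the values of Hsd3b1 and Hsd3b4 was not tested. Other defining markers of medulla, such as Aqp2 and Umod, were not among the named genes, so the labelled tissue could be checked only through these ratios.

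The adrenal gland, which lies on the kidney and makes Hsd3b1, was checked through its own markers. Of 13 listed genes of adrenal cortex 5 were measured. Their differences were small, with a median of 0.04 and a range of -0.09 to 0.06. They were 0.05 for Star, which carries cholesterol into mitochondria, 0.04 for Cyp11a1, which cleaves its side chain, 0.06 for the transcription factor Nr5a1, -0.08 for the corticotropin receptor Mc2r and -0.09 for the lipoprotein receptor Scarb1 (SE 0.15 to 0.30). The mean level of these 5 was -0.10, 0.08 and 0.02 in restricted and 0.07, 0.08 and -0.15 in control mice. Of 8 listed genes of adrenal medulla 2 were measured, Th, or tyrosine hydroxylase, at -0.11 (SE 0.26) and the amine transporter Slc18a1 at -0.17 (SE 0.14). Whether these transcripts were detected at all cannot be seen from ratios. The differences of all 7 measured adrenal genes were 0.17 or less in size, and the part of adrenal tissue in the values of Hsd3b1 and Hsd3b4 was not tested.

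The other genes of steroid synthesis, conversion and reception had smaller differences than both dehydrogenases. Hsd3b1 was chosen by its group difference and Hsd3b4 has the largest positive one of all genes, so nothing is read from that. By limma on the mouse levels, 0 of 22 measured genes of these lists passed, as did 0 of all 6786 genes (0%), and 4 of the 22 had an unadjusted p under 0.05, against 4.97% of all. In a fit with random mouse effects, 0 of the 22 passed, while 1.46% of all genes did. The 22 genes, of 74 listed, had a median difference of 0.05, with 14 positive and 8 negative, and ran from -0.88 to 0.97. Among them, Hsd3b2, Hsd3b3, Hsd3b5 and Hsd3b6 were not named on the arrays, and Nsdhl, a related dehydrogenase of cholesterol synthesis, had -0.59 (SE 0.35), or -0.38 without the array of restricted mouse 2 and control mouse 2.

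Of the steroid synthesis list 8 of 21 genes were measured. Besides Star, Cyp11a1, Nr5a1 and Scarb1, these were Cyp17a1, the androgen-forming hydroxylase, at 0.05 (SE 0.23), Cyb5a, or cytochrome b5, at 0.37 (SE 0.19), the mitochondrial protein Tspo at -0.07 (SE 0.15), and Nr5a2, a nuclear receptor related to Nr5a1, at 0.06 (SE 0.17). The 3 clones of Nr5a2 disagreed, with mean ratios of 0.53, -0.11 and -0.32.

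Enzymes that convert steroids numbered 8 of 37. Akr1c14, an aldo-keto reductase that acts on steroids at the same ring position, had the largest difference, 0.97 (SE 0.39), with its 2 clones at 0.92 and 1.18, and 1.34 without the array of restricted mouse 2 and control mouse 2. Akr1c19, of the same enzyme family, lay on the other side at -0.88 (SE 0.44). The hydroxysteroid dehydrogenases Hsd17b12, Hsd17b4 and Hsd17b10 had 0.41 (SE 0.17), 0.20 (SE 0.15) and 0.05 (SE 0.29). The 2 clones of Hsd17b4 differed, at 0.39 and -0.06. The oxysterol hydroxylases Cyp39a1 and Cyp7b1 had -0.48 (SE 0.20) and -0.08 (SE 0.15), and H6pd, which supplies reduced cofactor in the endoplasmic reticulum, 0.09 (SE 0.16). Hsd11b1 and Hsd11b2, which interconvert active and inactive glucocorticoid, were not named on the arrays.

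Of 12 listed receptors 5 were measured. Esrra, an orphan receptor of mitochondrial genes, had 0.65 (SE 0.27), the oestrogen receptor Esr1 0.16 (SE 0.21), the glucocorticoid receptor Nr3c1 -0.29 (SE 0.20), and the membrane proteins Pgrmc1 and Pgrmc2 -0.11 (SE 0.18) and 0.02 (SE 0.15). None passed.

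**Figure D4:**
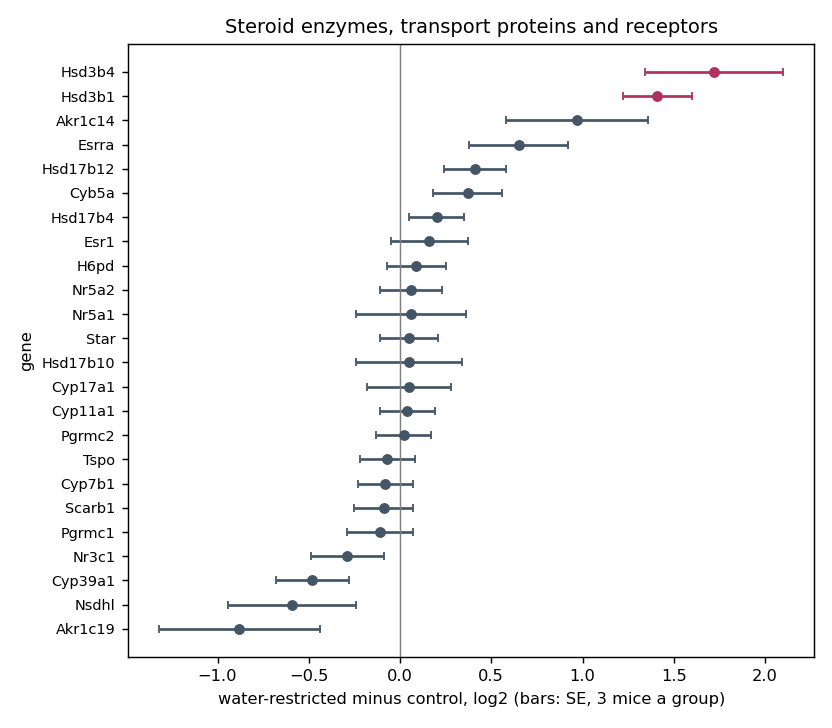
Group difference on the log2 scale with its SE (bars, 3 mice a group) for Hsd3b1 and Hsd3b4 (red) and the 22 other measured genes of steroid synthesis, conversion and reception (dark grey). Hsd3b1 and Hsd3b4 lie at 1.41 and 1.72, and the others between -0.88 and 0.97.

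Genes known to respond to corticosteroids were mostly positive. Of 19 listed 6 were measured, 5 of them positive, with a median of 0.44, and 2 passed in the fit with random mouse effects. Over all genes, 50.7% were positive and 0.943% passed on the positive side. With earlier results of these data known when the list was chosen, these counts are a description only. The 2 genes that passed were Sgk1, a kinase of sodium transport, at 0.59 (SE 0.19, limma adjusted p = 0.0458) and Usp2, a deubiquitinase, at 0.58 (SE 0.17, limma adjusted p = 0.0219). Both were positive on 12 of 12 arrays. On the mouse levels neither passed, with a limma adjusted p of 0.771 for each. Fkbp5, a receptor co-chaperone, had 0.50 (SE 0.48), Errfi1, a feedback inhibitor of growth factor receptors, 0.39 (SE 0.36), Atp1b1, the beta subunit of the sodium pump, 0.33 (SE 0.14), and Klf9, a transcription factor, -0.00 (SE 0.23). Clones of Atp1b1 disagreed, at -0.26, 0.64 and 0.60.

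Genes that supply cholesterol, the substrate of steroid synthesis, lay on both sides. Of 23 listed 10 were measured, 7 of them positive and 3 negative, with a median of 0.15, a range of -0.59 to 0.48 and none past the threshold in either fit. Msmo1, a sterol oxidase, had 0.46 (SE 0.17), with its 2 clones at 1.09 and -0.08, Fdft1, or squalene synthase, 0.36 (SE 0.16), Lss, or lanosterol synthase, 0.29 (SE 0.18), Idi1, an isomerase of the pathway, 0.48 (SE 0.35), and Mvd, a decarboxylase, 0.21 (SE 0.24). The negative members were Nsdhl at -0.59 (SE 0.35) and the cholesterol transport proteins Npc2 at -0.15 (SE 0.28) and Npc1 at -0.07 (SE 0.19).

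Over the 12 turned arrays, the 5 genes most like Hsd3b1 by Pearson r were Sycp3 (0.93), 8430419K02Rik (0.92), Fbxl5 (0.91), Ccnc (0.90) and Tmed7 (0.90). All 5 had a negative dye term, from -0.75 to -0.26, and group differences of only -0.02 to 0.45. Those most like Hsd3b4 were Acadm, an enzyme of fatty acid oxidation (0.98), Tmco3 (0.94), Trps1 (0.94), Cat, or catalase (0.94), and Naa40 (0.93). Acadm had levels of 0.77, 0.65 and -0.08 in restricted and 0.51, -1.58 and -0.27 in control mice, with control mouse 1 highest and control mouse 2 lowest of the controls, as for Hsd3b4. Acadm was picked by its r with Hsd3b4, so a like order of control mice is partly built in and nothing is read from it. These arrays share 6 mice and 2 dyes, so r describes these arrays only.

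Between Hsd3b1 and Hsd3b4 themselves r was 0.15 over the 12 arrays, and 0.73 once the dye term of each gene was taken out, a step chosen after seeing the data. An r of 0.73 was not particular to this pair. By r after that step, Hsd3b4 had rank 127 among the genes like Hsd3b1, and Hsd3b1 had rank 328 among those like Hsd3b4. After the same step the genes most like Hsd3b1 were Cryz (0.96), Mpp1 (0.91), Aifm1 (0.91), Pdzk1, a scaffold protein of the brush border (0.90), and Vmp1 (0.90). Pdzk1 had a difference of 1.20 (SE 0.30) and was positive on 12 of 12 arrays. Like both dehydrogenases, it had control mouse 1 at the top and control mouse 2 at the bottom of the control mice (0.05, -1.23 and -0.61). Because Pdzk1 was picked by its r with Hsd3b1, a like order is partly built in and nothing is read from it.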

How the data were processed

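Log2 ratios of both channels, 1 per spot and array, were used as the authors deposited them, for 31200 spots on 12 arrays with no missing value. Per the labels, Alexa Fluor 546 and 647 were the dyes of the 2 channels. The log base was read from the values, which reach -15.2. The sources used here do not give the background correction, the normalization or the numerator of the ratio. Signal over background was not analysed here, and the precision of the group difference is limited by the 3 mice of each group.

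Clones were named through GEO's platform annotation. The mean of 2 adjacent spots gave 15600 clones, 9191 of them with 1 gene, 254 with more than 1 and 6155 with none. Symbols of 9085 clones were updated through Entrez identifiers in RefSeq (GRCm38.p6, names only), and clones were averaged to 6786 genes. Arrays with the restricted mouse in Alexa Fluor 647 had their sign changed.

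Weighted least squares with a dye term gave a level for each mouse, with arrays of a swapped pair weighing 0.5. The 3 levels of each group were compared by limma (version 3.58.1, run in R 4.3.3, with Benjamini-Hochberg adjustment over all genes and a threshold of 0.05). The dye term and the F between mice of the same group were tested with limma on 12 equally weighted arrays, whose residual error is technical. The fit with random mouse effects used generalised least squares, with arrays that share a mouse correlated (variance ratio 0.15, the same for all genes). It was run as an alternative. The procedure was tested on simulated data. The sensitivity to weights, dye term, centring, scaling, single orientations, single spots, arrays and mice was examined. Same-numbered mice were not taken as pairs.

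The genes and lists were chosen with earlier results of these data known. Named genes were Hsd3b1 and Hsd3b4, all other measured genes of the dehydrogenase family, steroid synthesis, conversion and receptor lists, up to 6 genes by smallest p of each further list described, and the 5 genes most like each member. Npc1, Npc2, Col3a1, Hbb-b1, Polr2b, Car4 and the genes most alike after the dye term was taken out were named after their values were seen. Markers of other nephron segments, podocytes, endothelium, interstitium, leukocytes, urothelium, erythroid cells and adipocytes were also listed. Promoter sequences are from RefSeq.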

Additional observations from a re-analysis of the deposited data

Results flagged for a closer look

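Among the 6 arrays of each dye orientation, 12 of 132 gene and orientation groups held an array far from the other 5, where chance alone flags about 1 in 20. Neither Hsd3b1 nor Hsd3b4 was among them. On the array of restricted mouse 1 and control mouse 3 with the restricted mouse in Alexa Fluor 546, Cyp11a1 had 1.05 (others -0.41 to 0.04) and Th 2.01 (others -0.49 to 0.08). On the swapped array of these mice Cyp17a1 had -0.61 (others -0.00 to 0.34). On the array of restricted mouse 2 and control mouse 2, Hsd17b10 had 2.18 (others 0.19 to 0.79) and Nsdhl -2.78 (others -0.66 to -0.05). On that of restricted mouse 3 and control mouse 2 in the first orientation, Cryz had 2.25 (others 0.22 to 0.81), Vmp1 1.18 (others 0.20 to 0.48) and Fdft1 1.06 (others 0.40 to 0.64). On that of restricted mouse 3 and control mouse 1, Fkbp5 had 2.87 (others -0.25 to 0.90) and Miox 2.32 (others 0.71 to 1.19). In the second orientation, Hsd17b12 had -0.54 on the array of restricted mouse 2 and control mouse 1 (others 0.13 to 0.47), and Wnt4 -1.98 on that of restricted mouse 1 and control mouse 2 (others -1.48 to -1.21).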

How the results depend on the processing

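The differences of Hsd3b1 and Hsd3b4 kept their sign under every alternative run. That of Hsd3b1 ran from 0.66 to 2.20, both from single dye orientations, and that of Hsd3b4 from 1.27 to 2.09, both from leaving out a control mouse (2 and 1). With the mouse number as a replicate block they were 1.41 (SE 0.20) and 1.72 (SE 0.35), and 0 genes passed. Deviations of same-numbered mice from their group means correlated across genes at -0.015, -0.542 and -0.114. Those of differently numbered mice ran from -0.497 to 0.497. The levels come from ratios of restricted to control mice, so noise of an array enters both. These values therefore cannot show whether the numbers pair the mice. The dye term of Hsd3b1 passed in every alternative, from -0.80 to -0.74, and that of Hsd3b4 in none. The F of Hsd3b1 passed in none. It was 0.41 without the dye term, and 0.64 to 4.89 without 1 mouse.

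The number of genes past the threshold for the group difference was 0 on the mouse levels, also without any 1 mouse, 99 with random mouse effects and 451 with arrays as replicates. For the F between mice it was 14, with 28 when swapped arrays weighed 0.5 (chosen after seeing the data), 6 without the dye term, 50 without the array of restricted mouse 2 and control mouse 2, 27 at a threshold of 0.1, and 0 to 5 without 1 mouse. For the dye term it was 449, with 769 at the weight of 0.5 and 972 at a threshold of 0.1. Apart from the looser threshold, the causes of these changes were not tested.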
